A study of Mus musculus with 2 samples.

Results

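The data concern Snai2 and 9 further genes of the epithelial-mesenchymal program in mouse kidney: the transcription factors Snai1, Snai2, Twist1, Twist2, Zeb1 and Zeb2, and the epithelial and mesenchymal genes Cdh1, Epcam, Cdh2 and Vim. The genes were chosen by their known roles in the program, around Snai2, which was selected on its measured difference between these 2 arrays. A gene was measured through probe sets that carry its symbol alone, and the brightest such probe set stood for the gene. By this rule 9 of the 10 genes were measured, of 22180 genes in all. Zeb2 was not analysed here, since each of its 2 probe sets also carries the symbol of a second gene.

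Male mice of the genotypes Iah1-WT and Iah1-KO were compared, the latter with a systemic knockout of the esterase homolog Iah1. All mice had eaten standard chow up to 6 weeks of age and then a high-fat diet for 12 weeks, so the wild-type pool is a high-fat-diet control, and no chow-fed group was analysed here. They lived 1 to a cage, and tissue was taken early in the afternoon, 4 hours after food had been removed. Kidney RNA of 3 mice was pooled for each genotype and put on 1 Affymetrix expression array, called the wild-type and the knockout pool below. The labels give neither the strain nor the design of the knockout allele, and they call the tissue kidney with no further detail. With 1 array per genotype there is no replicate error and no test, and each difference below is between 2 pools. Values are log2 RMA values as deposited, and a difference is the Iah1-KO value minus the Iah1-WT value.

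Epithelial-mesenchymal transition is the process by which cells joined in a sheet lose their cell-cell junctions and take on the shape and motility of mesenchymal cells. Transcription factors of the SNAIL, TWIST and ZEB families drive it by repressing epithelial genes such as the E-cadherin gene Cdh1. They bind short E-box motifs in promoters and recruit corepressors. In the kidney the nephron epithelium itself arises from mesenchyme in development, and the same factors are studied in tubular injury and fibrosis.

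The labels were checked first. Iah1 was at 9.09 in the wild-type pool and 3.60 in the knockout pool, a difference of -5.49. All 14 proximal tubule markers lay at or above a log2 value of 6 in at least 1 pool. Of the urothelial and adrenal markers, 0 of 9 and 0 of 9 did. This value is an expression floor used below to set aside dim genes. A gene counts as at or above the floor if the higher of its 2 values is. The median over all probe sets was 4.05 on the Iah1-WT and 4.03 on the Iah1-KO array. A value near or below it is not shown to be above background.

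Among the measured genes Snai2 alone differed by at least 1.5-fold, the threshold used for counts. It was higher in the knockout pool, while 0 of the 9 were lower by that much. Across all 22180 genes, 0.996% were higher and 1.42% lower by at least 1.5-fold. Because Snai2 was picked for this difference, its count is a description only. The other 8 genes lay between -0.40 and 0.34, with a median of -0.04, beside a median of -0.0024 over all genes.

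**Figure D1:**
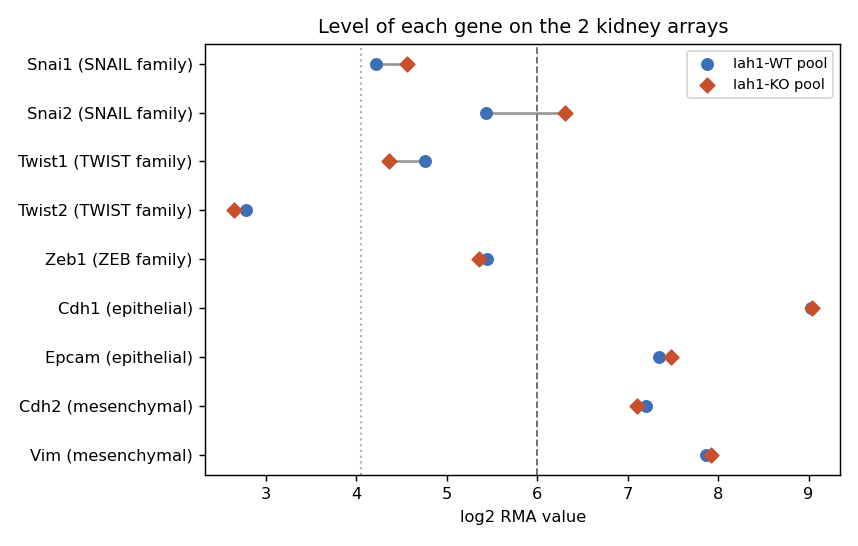
Log2 RMA value of the 9 measured genes on the Iah1-WT (circles) and Iah1-KO (diamonds) arrays, 1 pool of 3 mice each. The dashed line is the expression floor of 6 and the dotted line the Iah1-WT array's median of 4.05. Snai2 has the longest gap, from 5.43 to 6.31, and the symbols of Cdh1 coincide.

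Snai2 encodes SLUG, a zinc-finger repressor of the SNAIL family. Its 1 probe set (17323192) read 5.43 in the wild-type pool and 6.31 in the knockout pool. Snai2 was thus above the array median in both pools and above the expression floor in the knockout pool alone. The difference of 0.87 is a 1.83-fold higher signal, the 35th highest of 22180 genes. Among the 500 genes nearest to it in mean expression (itself included), the middle 95% lay between -0.40 and 0.45, and 1 gene, the Riken clone 9330159M07Rik at 0.88, had a larger difference. The robust SD of those 500 differences (the median absolute deviation scaled to an SD) was 0.21, which puts Snai2 at 4.25 robust SDs. This spread is over genes on 2 arrays and says nothing of the spread between mice. In bulk RNA, a change in the number of cells that make a transcript and a change in the RNA per cell cannot be told apart.

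**Figure D2:**
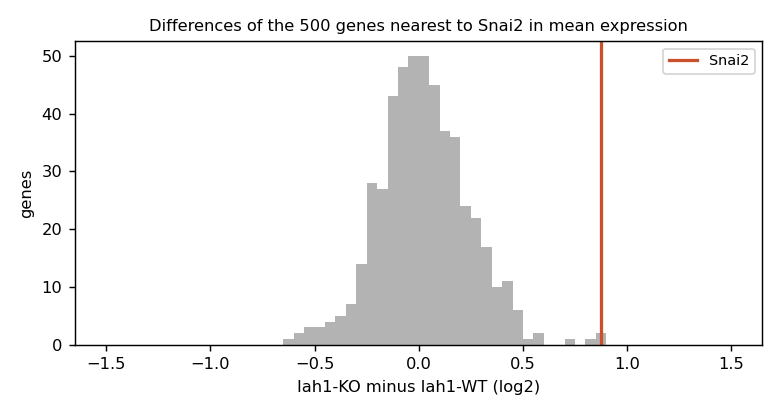
Number of genes by Iah1-KO minus Iah1-WT difference (log2), for the 500 genes nearest to Snai2 in mean expression. The vertical line marks Snai2 at 0.87, at the upper edge of a distribution whose middle 95% reaches from -0.40 to 0.45.

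Snai1, the founding SNAIL factor of the transition, was dim. It read 4.21 in the wild-type pool and 4.56 in the knockout pool, just above the array medians. Its difference of 0.34 had the same sign as that of Snai2 but was 1.18 local robust SDs, and 21.8% of the 500 genes of like expression differed by more in either direction. Snai3, the remaining family member, named after its values were seen, read 4.56 and 4.23. Its difference of -0.33 was -1.10 local robust SDs. By sign, 2 of the SNAIL genes lay above 0 and 1 below, but the dim Snai1 and Snai3 show no clear direction.

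Both TWIST genes, basic helix-loop-helix factors that act in mesoderm and neural crest, were lower in the knockout pool by less than 1.5-fold. Twist1 read 4.76 and 4.36 in the wild-type and knockout pools, a difference of -0.40, or 1.32-fold lower. That was -1.64 local robust SDs, and 13.6% of genes of like expression differed by more. Twist2 read 2.78 and 2.65, below the array median on both arrays, so its difference of -0.13 is not shown to concern expressed RNA.

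Zeb1, a zinc-finger and homeodomain repressor, read 5.44 in the wild-type and 5.35 in the knockout pool. Its difference of -0.09 was smaller than that of 68.4% of the genes near it in expression. ZEB messages are the textbook targets of the miR-200 family, small RNAs of epithelial cells. The mature forms from RefSeq are shown because their seeds (bases 2 to 8, in capitals) sort them into pairs, AAUACUG and AACACUG:
mmu-miR-200b-3p: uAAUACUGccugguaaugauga
mmu-miR-200c-3p: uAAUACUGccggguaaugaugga
mmu-miR-200a-3p: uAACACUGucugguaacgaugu
mmu-miR-141-3p: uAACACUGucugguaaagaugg
The array holds a probe set for each of these 4 genes, which reads RNA of the locus and does not tell the mature arms apart. They were looked up after other values had been seen. Mir200b read 3.80 and 3.80 in the wild-type and knockout pools, and Mir200c read 3.59 and 3.36. Mir200a read 3.85 and 4.19, and Mir141 read 1.64 and 1.89. Of the 8 values, 1 (Mir200a in the knockout pool) was above its array's median, so the other 7 are not shown to be above background.

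The epithelial genes were not lower in the knockout pool, where Snai2 was higher. Cdh1, the E-cadherin gene and the best known SNAIL target, read 9.03 in both pools in its brighter probe set (17505148), a difference of 0.00096. A second Cdh1 probe set (17512677) was dim and read 3.12 in the wild-type and 3.88 in the knockout pool, so its difference of 0.76 starts from a value below the array median. The Cdh1 probe sets thus disagree, and the part of the gene that each of them covers was not analysed here. Epcam, which encodes an adhesion molecule of epithelial cells, read 7.35 in the wild-type and 7.47 in the knockout pool. Its difference of 0.13 is a 9.23% higher signal and 0.89 local robust SDs.

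The mesenchymal genes differed by at most 0.10 in size in their brighter probe sets, Vim on the higher and Cdh2 on the lower side. Vim encodes the intermediate filament vimentin, which stromal, endothelial and glomerular cells contain. It read 7.87 and 7.92 in the wild-type and knockout pools, a difference of 0.05, and its second, dimmer probe set read 5.56 and 5.43. Cdh2 encodes N-cadherin, a mesenchymal marker in cultured cells that in the adult kidney is also a cadherin of the proximal tubule. It read 7.21 and 7.11, and its second probe set read 5.22 and 5.13. The differences of -0.10 in both Cdh2 probe sets were alike, and the brighter one was -0.77 local robust SDs. In the classical transition N-cadherin replaces E-cadherin. Here neither Cdh1 nor Cdh2 differed by as much as 1 local robust SD in its brighter probe set.

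**Figure D3:**
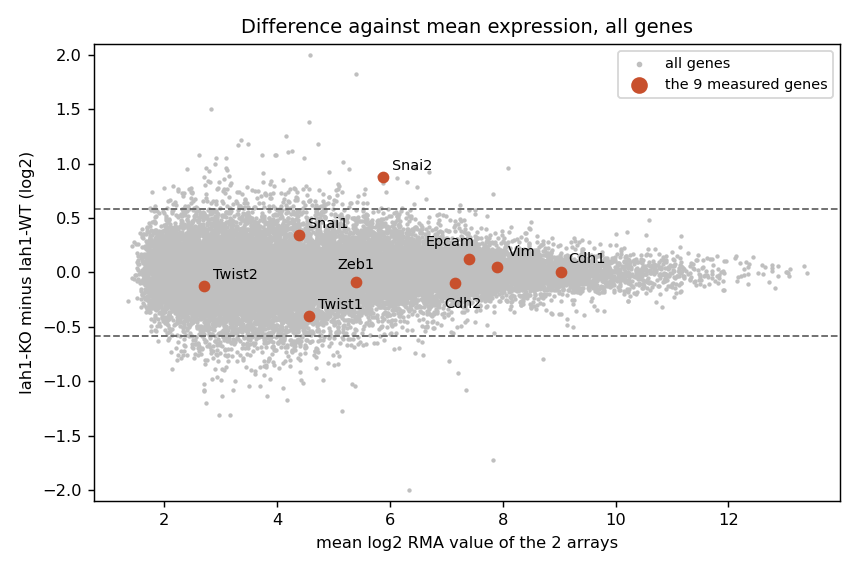
Iah1-KO minus Iah1-WT difference (log2) against the mean log2 RMA value of the 2 arrays, for all 22180 genes (grey) and the 9 measured genes (large points). Dashed lines mark 1.5-fold, and 2 genes beyond a difference of 2 in size are drawn at that limit. Snai2 at 0.87 lies outside the lines and the other 8 genes lie inside.

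SNAIL and ZEB factors bind the E-box CACCTG, which reads CAGGTG on the opposite strand. Promoters of 6 of the 10 genes (Snai1, Twist1, Twist2, Zeb2, Vim and Epcam) were matched in RefSeq by symbol, in 9 windows of 300 bases from 250 before to 50 after a gene's start. The motif was found in the windows of Epcam and Snai1 and in none of those of the other 4 genes. Of 32851 such promoter windows of all genes, 20.2% hold the motif at least once and 2.88% at least 2 times. The 250 bases before the start of both genes are shown because they carry the motif (in capitals). They come from RefSeq's GRCm38.p6, plus strand, at chr17:87635729-87635978 for Epcam and chr2:167537945-167538194 for Snai1.
Epcam: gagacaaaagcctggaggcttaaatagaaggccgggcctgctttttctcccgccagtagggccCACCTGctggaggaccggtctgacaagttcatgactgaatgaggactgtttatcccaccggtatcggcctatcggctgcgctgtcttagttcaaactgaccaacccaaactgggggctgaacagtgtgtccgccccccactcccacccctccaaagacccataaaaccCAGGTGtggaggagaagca
Snai1: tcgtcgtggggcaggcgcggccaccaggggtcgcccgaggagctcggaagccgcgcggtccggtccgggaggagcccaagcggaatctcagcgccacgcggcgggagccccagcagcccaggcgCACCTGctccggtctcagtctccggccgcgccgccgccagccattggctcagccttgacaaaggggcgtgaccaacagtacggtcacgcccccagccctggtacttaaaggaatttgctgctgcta
In Epcam the motifs begin at positions -187 and -19, and in Snai1 the motif begins at position -126, with -1 the last base before the start. Neither gene was lower in the knockout pool (0.13 for Epcam and 0.34 for Snai1). A match in letters is not a measured binding site.

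The genes around the program were described by 11 lists, with counts taken over genes at or above the expression floor. Some genes passed the floor only in the pool where they were higher, so their sign is tied to the filter. For example, Zbtb16, Pax2 and Sox4 passed in the knockout pool alone, and Foxc1, Cdh11 and Smad7 in the wild-type pool alone. Among all 7671 such genes, 4016 lay above 0 and 3653 below, the median was 0.01, and 0.222% were higher and 0.209% lower by at least 1.5-fold. The 11 lists together held 154 such genes, of which 80 lay above 0 and 74 below, with a median of 0.01. Zbtb16 was the 1 gene that was higher by at least 1.5-fold, and 0 were lower.

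Factors that pair with the drivers or share their program had 9 genes that reached the floor, 4 above 0 and 5 below, with a median of -0.05. Id3, an inhibitor of basic helix-loop-helix factors, read 6.92 in the wild-type and 6.53 in the knockout pool. Foxc1, a forkhead factor, read 6.22 and 5.87, and Sox4 read 5.93 and 6.27. Prrx2, a mesenchymal homeobox gene below the floor, read 4.70 and 4.05, a difference of -0.64 that passed 1.5-fold. In this list, as among the drivers, values lay on both sides of 0.

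Regulators of epithelial identity had 6 genes that reached the floor, 5 above 0 and 1 below, with a median of 0.13. Pax2, a nephric lineage factor, read 5.80 in the wild-type and 6.27 in the knockout pool. Tfap2b, a factor of the distal nephron, read 7.17 and 7.53. Hnf4a, the nuclear receptor of proximal tubule identity, read 10.69 and 10.85. Each of these 3 differences was under 1.5-fold, and with a floor of 5 the median of the list was -0.0035.

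The proteins through which SNAIL and ZEB factors repress were measured broadly, with 19 of 20 measured corepressor genes at or above the floor. Of these, 11 lay above 0 and 8 below, with a median of 0.02 and differences from -0.25 to 0.26. Dnmt1, the maintenance DNA methyltransferase, was at 0.26 and Limd1, a LIM-domain partner of SNAIL, at 0.24. Wtip, a related LIM-domain protein, was at -0.25.

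SNAIL proteins are short-lived, and their amount is set largely by phosphorylation and ubiquitin ligases, which RNA levels do not show. Of 17 genes of this turnover at or above the floor, 6 lay above 0 and 11 below, with a median of -0.07. Gsk3b, the kinase that marks SNAIL proteins for destruction, read 9.06 in the wild-type and 8.68 in the knockout pool. That difference of -0.38, under 1.5-fold, was -3.91 local robust SDs, since bright genes scatter little. Mdm2, a ubiquitin ligase, was at 0.25 and the kinase Atm at -0.22.

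Upstream signals gave no common direction. TGF-beta and BMP genes, which include the best known inducers of the transition, had 17 genes that reached the floor, 9 above 0 and 8 below, with a median of 0.0037. Smad2, which carries the TGF-beta signal to the nucleus, read 6.99 in the wild-type and 7.48 in the knockout pool, or 3.71 local robust SDs. The ligand Tgfb1 and the inhibitor Smad7 were both at -0.22. Wnt, Notch, growth factor and hypoxia genes had 19 at or above the floor, 10 above 0 and 9 below, with a median of 0.00082. Kit, a receptor kinase, was at 0.28, Fgfr1 at -0.18 and the hypoxia factor Epas1 at 0.17.

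Lists of structural genes on both sides of the transition had medians close to 0, with single genes on either side. Cadherins and catenins other than Cdh1 and Cdh2 had 8 genes that reached the floor, 2 above 0 and 6 below, with a median of -0.04. Cdh5, the endothelial cadherin, was at 0.24, the stromal Cdh11 at -0.21 and Ctnnd1, the catenin p120, at -0.15. Junction, keratin and polarity genes had 29, with 16 above 0 and 13 below and a median of 0.04. The claudins Cldn3 and Cldn1 were at 0.34 and 0.28, and the mucin Muc1 was at 0.24. Mesenchymal and matrix genes had 16, with 7 above 0 and 9 below and a median of -0.03. Col6a1, a collagen VI chain, was at -0.32, while the contractile genes Tagln and Myl9 were at -0.29 and 0.26. Des, the muscle filament gene desmin, was below the floor, with 4.34 in the wild-type pool and a difference of 0.66.

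Genes described as SNAI2 targets in other tissues lay on both sides of 0. The list was not split by the direction described for each gene, so counts of sign cannot show whether they moved as described. Of 10 at or above the floor, 5 lay above 0 and 5 below, with a median of -0.01. Cldn1, which SLUG represses in cultured epithelium, read 6.87 in the wild-type and 7.15 in the knockout pool. Ccnd1, cyclin D1, read 9.25 and 9.54, and the desmosomal Dsp read 6.92 and 7.12. Each of these 3 was on the higher side.

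A mixed list of steroid receptors, clock, repressor and other genes that have been described beside SNAI2 in other tissues had the highest median of the 11. Of the 9 genes that reached the floor, 8 lay above 0 and 1 below, with a median of 0.22. It was drawn up with earlier results of these arrays known, Zbtb16 among them, so it is no independent evidence. Zbtb16, a zinc-finger repressor, read 5.57 in the wild-type and 6.31 in the knockout pool. Dusp1, a phosphatase of MAP kinases, was at 0.38 and Fkbp5, a chaperone of steroid receptors, at 0.31.

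**Figure D4:**
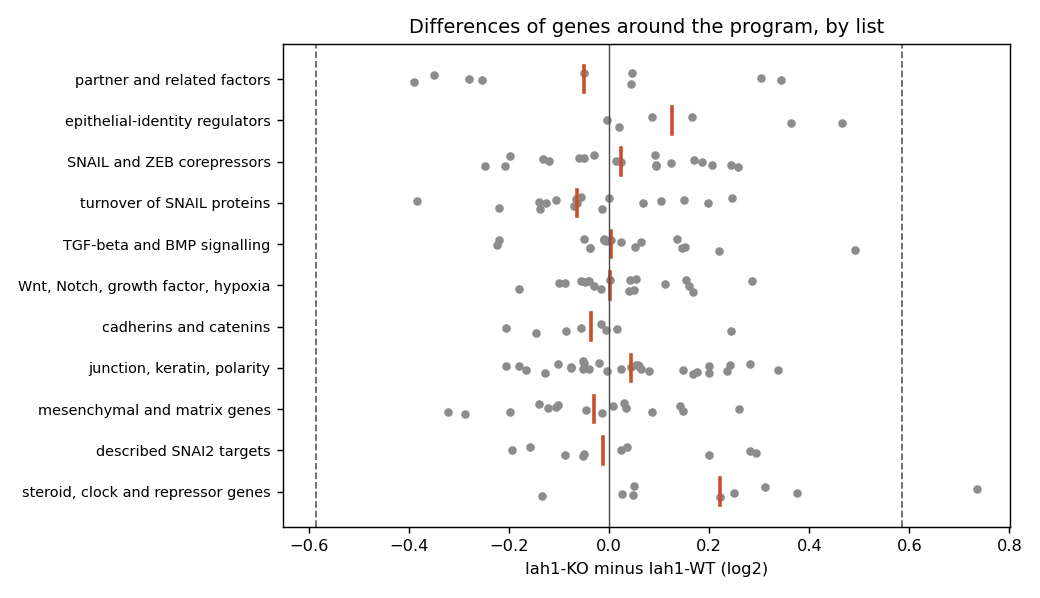
Iah1-KO minus Iah1-WT difference (log2) of each gene at or above the expression floor in the 11 lists (grey points), with the median of each list as a vertical bar and dashed lines at 1.5-fold. Medians lie between -0.07 and 0.22, and Zbtb16 is the 1 point outside the dashed lines.

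Cell type markers that could move with Snai2 were read beside it. The fibroblast and pericyte list, for stromal cells that express SNAIL-family factors, had 7 of 14 genes that reached the floor, with a median of -0.02. With no floor the median of this list was 0.04, and its differences ran from -0.17 to 0.30. Its summed linear level was 1.01 times as high in the knockout as in the wild-type pool. Podocyte and parietal epithelium markers had 4 of 9 at or above the floor, all 4 above 0, a median of 0.19 and a summed level 1.10 times as high. These were Pax2 at 0.47, which passed in the knockout pool alone, Cldn1 at 0.28, Podxl at 0.10 and Wt1 at 0.02. Below the floor, Nphs1 (0.31), Ptpro (0.18) and Akap12 (0.03) were higher, and Ncam1 (-0.25) and Synpo (-0.15) lower. With no floor the median of this list was 0.10. Endothelial markers had 11 of 12, 10 above 0, a median of 0.11 and a ratio of 1.07, and macrophage and dendritic markers had 5 of 11, 4 above 0, a median of 0.11 and a ratio of 1.08. The bright H2-Ab1, at 9.30 and 9.37, makes up much of that last sum. Lyz2, the lysozyme gene of myeloid cells, read 6.11 and 6.74. It was the 1 macrophage marker that reached the floor and was higher by at least 1.5-fold. Cx3cr1, at 0.41, passed the floor in the knockout pool alone, so its sign is tied to the filter. Below the floor, Itgax (0.77), C1qc (0.30) and C1qa (0.04) were higher, and Adgre1 (-0.73), Cd68 (-0.23) and Itgam (-0.01) lower. With no floor the median of the macrophage and dendritic list was 0.07. Melanocyte and neural crest markers, for a lineage known for SLUG, had 1 of 6 at or above the floor, Mitf at 6.18 in both pools. Below the floor, Tyr (0.43), Pmel (0.31) and Sox10 (0.19) were higher, and Dct (-0.70) and S100b (-0.07) lower. Dct passed 1.5-fold but read 4.00 and 3.30, below the array medians, so its difference is not shown to concern expressed RNA. With no floor the median of this list was 0.09. Each summed level weighs bright genes most, such as Nt5e at 8.92 and 9.03 in the fibroblast and pericyte list. Smooth muscle and mesangium markers had 6 of 9 that reached the floor, 4 above 0, a median of 0.11 and a ratio of 1.06. Among tubular lists, intercalated cell markers had 2 of 9 above 0 and a median of -0.09. Loop of Henle markers had 1 of 7 above 0 and a median of -0.04. Medians were 0.07 for distal tubule, 0.06 for principal cell and 5.0e-05 for proximal tubule markers. Atp6v1g3, of intercalated cells, was lower by at least 1.5-fold, at -0.81. The part of these cell types in the Snai2 difference was not tested.

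The measured genes beside Snai2 in the RefSeq gene order differed by less than Snai2. Because Snai2 was picked for its difference, this is a description only. Of the 10 nearest, 5 on each side, 4 were measured. Of these, 3 lay above 0 and 1 below, between -0.22 and 0.33. Abcc1, a drug efflux transporter, read 5.97 in the wild-type and 6.30 in the knockout pool, and Cep20, a centrosomal protein gene, read 7.23 and 7.02. Efcab1 and A630010A05Rik were below the array medians in both pools, so their differences are not shown to concern expressed RNA.

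The 5 genes whose pair of values lay nearest to that of Snai2 (Euclidean distance on the log2 scale over the 2 arrays) were Cxcl9, 9330159M07Rik, Zbtb16, Snord83b and Cyrib. Cxcl9, a chemokine induced by interferon gamma, read 5.47 and 6.29, at a distance of 0.04. Cyrib, the farthest of the 5, read 5.62 and 6.16, at a distance of 0.24. Nearness over 2 arrays means that the levels and the difference were alike, and nothing more.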

How the data were processed

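The deposited log2 values were made by the authors per probe set. The submitters' processing notes name RMA and version 1.3.0 of Affymetrix Expression Console. RMA gives the probe intensities of both arrays the same distribution before it summarises them per probe set. A shift common to most genes would therefore not show, and RMA compresses differences of dim probe sets. No label names the genome build behind the array's annotation, so no coordinates of probe sets are printed; those of promoters and their sequences are RefSeq's own.

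Of 41345 probe sets, GEO's platform annotation gave 1 gene symbol to 23521, several to 1814 and none to 16010. Differences were computed in pandas 2.3.3 and numpy 2.4.6 under Python 3.11.15, with loess from statsmodels 0.14.6, and the procedure was tested on simulated data. No test was possible with 1 array per genotype, and precision is limited by the number of arrays.

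The members and lists were chosen with earlier results of these data known. The genes named are the members, the check gene Iah1, up to 3 genes of each of the 11 pathway lists with the largest difference at or above the floor, pathway genes beyond 1.5-fold, the 5 genes on each side of Snai2 and the 5 nearest in pattern. Cell type lists are given as counts and medians. Snai3, the miR-200 genes and single cell type markers were named after their values were seen. Alternatives were other thresholds and floors, another choice of probe set, centring, and loess correction (span 0.3). The steroid list without Zbtb16 was added after the data were seen.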

Additional observations from a re-analysis of the deposited data

How the results depend on the processing

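The difference of Snai2 kept its sign and stayed beyond 1.5-fold with centring and with loess correction. The mean over probe sets put Cdh1 at 0.38, its dim probe set 17512677 alone put it at 0.76, and the dim Vim probe set 17548193 gave -0.13, each a move by more than the local robust SD. Of 30 alternative values of the 9 genes, the other 27 moved by less. Many of these could hardly move, so the count is no measure of robustness. For a gene with 1 probe set, such as Snai2, the mean over probe sets is the same value. Centring shifts every gene by the median of all genes, -0.0024. The count of genes higher by at least 1.5-fold (1) was 0 at a 2-fold threshold and 2 (Snai2 and Snai1) at 1.2-fold, and the count of lower genes (0) was 1 (Twist1) at 1.2-fold. Those thresholds took in 0.0857% and 10.3% of all genes on the higher side, and 11.6% on the lower side at 1.2-fold. At 4 local robust SDs the counts were 1 and 0. Of 127 alternative list medians, 2 moved by 0.1 or more: partner and related factors were at -0.15 with the mean over probe sets, and epithelial-identity regulators at -0.0035 with a floor of 5. With no floor, 1 partner gene (Prrx2) was lower and 1 mesenchymal gene (Des) higher by 1.5-fold, and with a floor of 7 the steroid list had 0 such genes, as Zbtb16 was left out. Without Zbtb16 the median of that list was 0.14. The loess and centring settings shifted the median of all genes by under 0.1. No paired analysis was possible because each genotype has 1 array, and for the same reason no replicate could be left out. Signal over background is the limit for Snai1, Twist1, Twist2, Zeb1, Prrx2 and Des, which lay below the floor in both pools and for which no detection calls were used here. That limit also bears on Snai2, whose wild-type value of 5.43 lay below the floor.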

Other observations

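Genes whose promoters hold the E-box that SNAIL and ZEB factors bind were described as a group after the values of Snai2 had been seen. Of 7671 genes at or above the expression floor, 6135 had a RefSeq promoter window, and the motif was absent from all windows of 4865 of them. Those without the motif had a median difference of 0.0064, with 48.1% below 0. The 1085 genes with 1 motif had a median of 0.02, with 44.5% below 0. The 185 genes with 2 or more motifs in a window had a median of 0.03, with 43.8% below 0, and 1 of them was lower and 1 higher by at least 1.5-fold. By the same threshold 2 genes with 1 motif were higher and 2 lower, as were 8 and 8 of those with none, and 11 and 11 of all 6135 genes (0.179% in each direction). These are letter matches, binding was not measured, and no test was made.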
